A study of Mus musculus with 2 samples.

Results

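Mitochondrial complex I (NADH:ubiquinone oxidoreductase) is built from products of nuclear genes and of the mitochondrial genome, and its nuclear genes were described here in newborn mouse forebrain. The members were all protein-coding genes whose symbols carry an Ndufa, Ndufb, Ndufc, Ndufs, Ndufv, Ndufab or Ndufaf stem followed by a number. There were 46 such genes among 21474 protein-coding genes and 43346 genes in all, of which 38 carry subunit names and 8 carry assembly factor names. Forebrain of mice aged 0 days (strain B6NTac;B6NCrl/Lap, sexes pooled, no treatment) gave 2 libraries of total RNA depleted of ribosomal RNA. Replicate 1 was made from 15 mice and replicate 2 from pooled mice whose number the labels do not state. Both belong to 1 group, so no comparison between conditions can be made, and both carry the same donor identifier, so the SDs measure the spread between these isolates only.

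Complex I has the shape of a boot. Its peripheral arm, in the mitochondrial matrix, takes electrons from NADH and passes them along iron-sulfur clusters to ubiquinone, and its membrane arm pumps protons. The catalytic core descends from bacteria, the accessory subunits were added around it later in evolution, and assembly factors help to build the complex without remaining in it. In brain it feeds the respiratory chain on which neurons depend for ATP, and human mutations in many of these genes cause Leigh syndrome or isolated complex I deficiency.

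The libraries held 62516003 and 65912060 expected counts in replicates 1 and 2, of which 43353007 and 51052389 fell on protein-coding genes. Levels are given as coding TPM, the deposited TPM (a relative transcript abundance scaled for length) rescaled to the protein-coding sum of each library. Mean fragment lengths were 248.7 and 269.7 nt in replicates 1 and 2. All 6 forebrain markers were detected, at a median of 56.9 coding TPM in replicate 1 and 48.8 in replicate 2, while of 4 hindbrain markers Hoxa2 and Hoxb2 had 0 counts in both and the other two were low. Egr2 had 124 counts in replicate 1 and 81 in replicate 2 (2.36 and 1.27 coding TPM), and En1 had 46 and 15 (0.886 and 0.272 coding TPM).

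All 46 genes reached 1 coding TPM in both libraries, with 75 to 7906 expected counts per gene and library. The subunits had a median of 198.9 coding TPM in replicate 1 and 151.8 in replicate 2, against 29.8 and 26.5 for the assembly factors. The median subunit level was 6.67 times the median assembly factor level in replicate 1 and 5.73 times in replicate 2, a ratio of 6.20 ± 0.671 (SD, n = 2). The subunits thus stood at the 93.1 percentile, at their median, of the 13596 protein-coding genes detected in both libraries, and the assembly factors at the 49.7 percentile. Together the 38 subunits made up 0.840% of coding TPM in replicate 1 and 0.674% in replicate 2, and the 8 assembly factors 0.0296% and 0.0264%. The levels of 31 subunits exceeded that of the highest assembly factor in both libraries, and those of the other 7 (Ndufs8, Ndufa5, Ndufs4, Ndufb4, Ndufab1, Ndufa11 and Ndufa4l2) did not. Of these Ndufs8, Ndufa5 and Ndufs4 exceeded it in replicate 1 only.

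The classes also differed in transcript length. Subunit transcripts had a median length of 755 nt and assembly factor transcripts 1225 nt, and in plain expected counts the ratio of the medians was 2.77 in replicate 1 and 1.97 in replicate 2. Among the 17 subunits and 5 assembly factors with an effective length of at least 500 nt the ratio in coding TPM was 3.84 ± 0.798 (SD, n = 2). Across the 46 genes the mean level was lower at greater mean length (Spearman rho = -0.597, a description over genes that share 2 libraries and a length correction), and across the 38 subunits rho was -0.598. No p-value is attached to these contrasts, because genes are not replicates and 2 libraries cannot give a two-sided permutation p under 0.5.

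**Figure D1:**
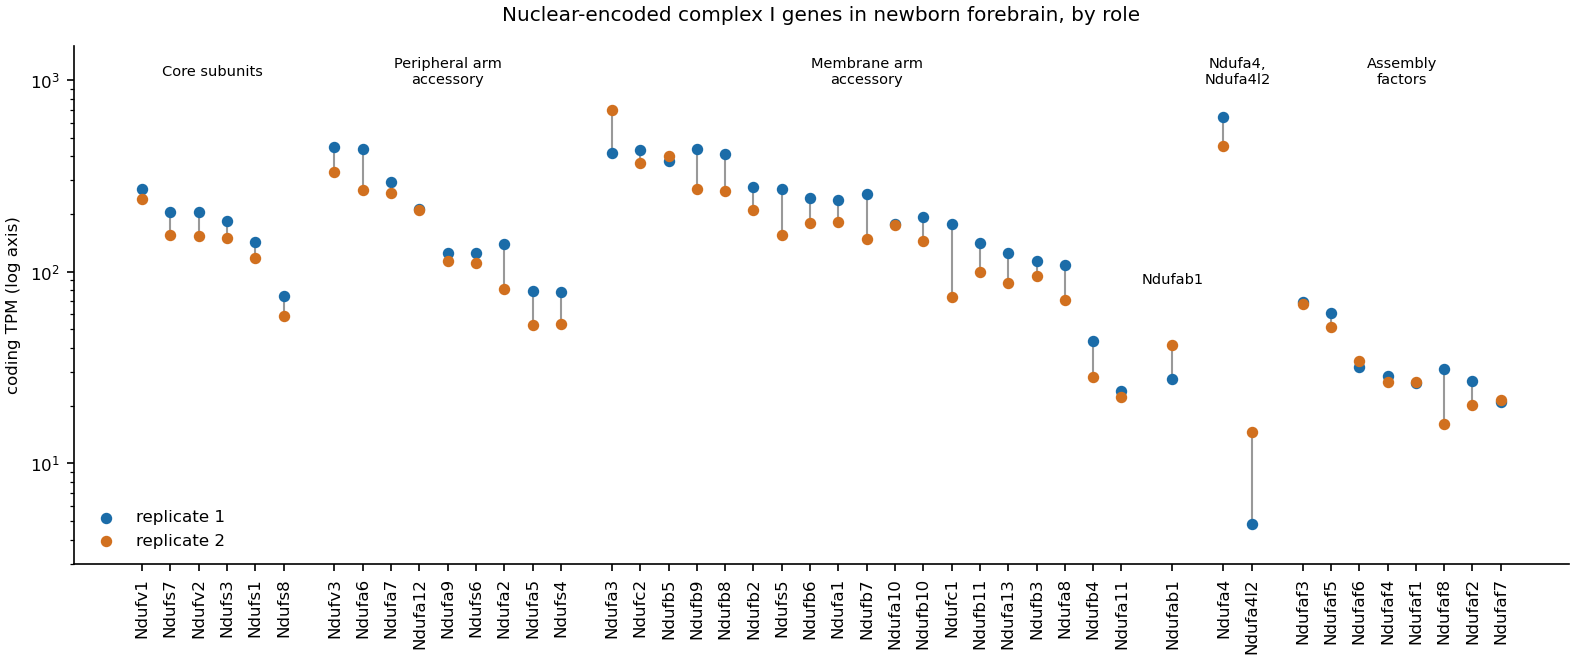
Level of each complex I gene named in the text in coding TPM (log axis), with genes on the horizontal axis grouped by role, replicate 1 in blue, replicate 2 in orange and a line joining the libraries. The assembly factors on the right lie between 16.1 and 69.1, below most of the subunits in both libraries.

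**Figure D2:**
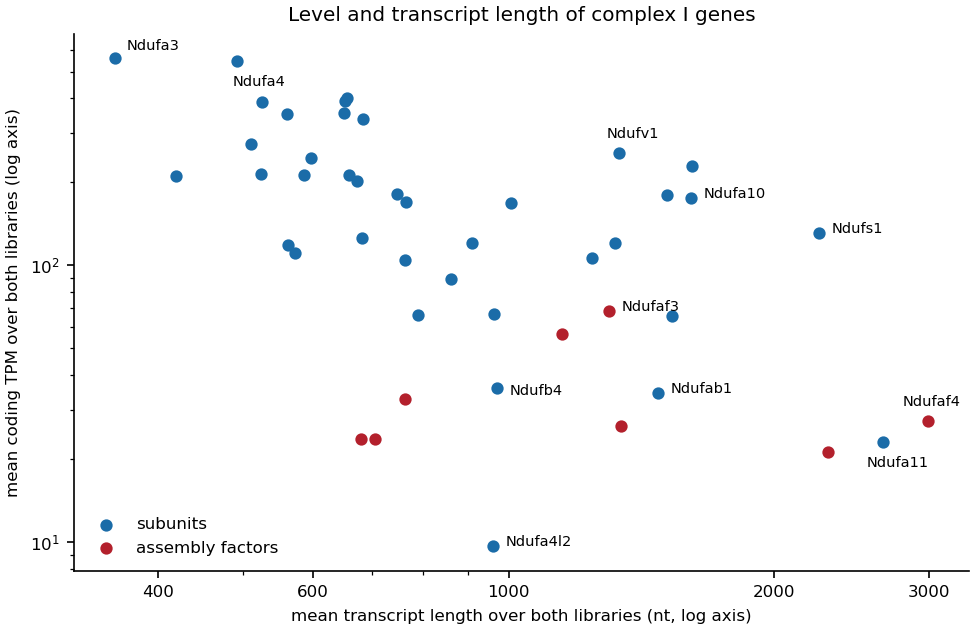
Mean coding TPM over both libraries against mean transcript length in nt (both log axes), with 1 point per gene, subunits in blue and assembly factors in red. The highest subunits have short transcripts. Long subunits such as Ndufs1, Ndufv1 and Ndufa10 lie above all 8 assembly factors. The long subunits Ndufs4, Ndufab1 and Ndufa11, the last being the longest subunit, lie below the highest assembly factor, Ndufaf3.

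The 7 nuclear-encoded core subunits carry the redox chemistry. Ndufv1, which binds NADH and the flavin that receives its electrons, was the highest of them at 269.3 coding TPM in replicate 1 and 238.9 in replicate 2. Ndufs7, which holds the last iron-sulfur cluster before ubiquinone, had 205.4 and 155.6. Ndufv2, an iron-sulfur subunit of the NADH-oxidising module, had 205.1 and 153.7 coding TPM in replicates 1 and 2. Ndufv1 lay above Ndufs7 and Ndufv2 in both libraries without overlap, while Ndufs7 and Ndufv2 overlapped and their order is not resolved.

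Ndufs3, a scaffold of the ubiquinone module, had 184.2 coding TPM in replicate 1 and 149.9 in replicate 2. Ndufs1, the largest subunit and a carrier of several iron-sulfur clusters, had 142.7 and 118.1. Ndufs8, which holds the iron-sulfur clusters on the way to ubiquinone, was the lowest at 74.8 and 58.5 coding TPM. Ndufs3 overlapped with Ndufv2 above it, whereas Ndufs1 lay below Ndufs3 and Ndufs8 below Ndufs1 in both libraries without overlap. All 7 core genes had higher values in replicate 1.

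Core subunits and the remaining 31 subunits had nearly the same median level. The core median was 205.1 coding TPM in replicate 1 and 153.7 in replicate 2, against 192.6 and 148.6 for the other subunits, a ratio of 1.05 ± 0.0219 (SD, n = 2). The core genes are longer, with a median of 1335 nt against 672.9 nt, and had 2.80 and 3.01 times the median count of the others in replicates 1 and 2. With members of at least 500 nt effective length alone, 6 core and 11 other subunits, the ratio was 2.65 ± 0.297 (SD, n = 2), so the near equality of medians does not hold once short transcripts are left out.

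The 9 accessory subunits of the peripheral arm had a median of 139.5 coding TPM in replicate 1 and 114.3 in replicate 2. Ndufv3, an accessory subunit beside the NADH site, was the highest with 447.3 and 331.3. Ndufa6, an LYR-motif protein that docks the acyl carrier protein, had 434.6 coding TPM in replicate 1 and 265.9 in replicate 2, and Ndufa7 had 292.9 and 256.8. All 3 exceeded every core gene in both libraries. At the low end stood Ndufa5, with 79.7 and 52.8 coding TPM, and Ndufs4, whose loss in mice gives a widely used model of Leigh syndrome, with 78.2 and 53.0. The remaining 4 (Ndufa12, Ndufa9, Ndufs6 and Ndufa2) had mean levels from 110.3 to 211.6 coding TPM.

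The 19 membrane arm accessory subunits had a median of 236.4 coding TPM in replicate 1 and 154.8 in replicate 2. Over all 16 peripheral arm subunits, core included, the median was 194.6 and 151.8, which is 0.902 ± 0.111 (SD, n = 2) times the membrane arm median. That ratio passed 1 in counts per kilobase of full transcript length (1.09 ± 0.134) and among genes of at least 500 nt effective length (1.36 ± 0.190), so no order of the arms is established.

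Ndufa3, a small subunit of the membrane arm, had 417.4 coding TPM in replicate 1 and 700.6 in replicate 2, the highest mean of all 46 genes. Its counts were 1029 and 1447, and its effective length was only 112.3 and 85.9 nt, and by counts per kilobase of full length it ranked 11 rather than 1. Ndufc2, of the membrane arm, had 431.5 coding TPM in replicate 1 and 370.0 in replicate 2. Ndufb5 followed at 377.7 and 402.1. Ndufc2 and Ndufb5 held ranks 2 and 3 by counts per kilobase, so their high place did not rest on the short-transcript correction.

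At the other end Ndufa11, which lies at the junction of the membrane arm with complex III in the supercomplex, had 23.9 coding TPM in replicate 1 and 22.2 in replicate 2. Its counts, 1269 and 1278, are not low, but its single listed transcript is 2661 nt long. Apart from Ndufb4 and Ndufc1, which are described next to the features that affect them, the other 13 membrane arm genes (Ndufa1, Ndufa8, Ndufa10, Ndufa13, Ndufb2, Ndufb3, Ndufb6, Ndufb7, Ndufb8, Ndufb9, Ndufb10, Ndufb11 and Ndufs5) had mean levels from 89.4 to 353.8 coding TPM.

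Ndufb4, a membrane arm subunit on chromosome 16 (GRCm38, 37647170 to 37654453, minus strand), was listed at 43.5 coding TPM in replicate 1 and 28.3 in replicate 2. Its value depends on how reads were divided with Ndufb4c, a processed pseudogene on chromosome 15 (73809507 to 73809896). The 390 bases of Ndufb4c are identical to the Ndufb4 coding sequence, with 0 differences, so reads that fall wholly inside the coding sequence cannot be assigned by their letters. The first 180 bases of this shared stretch are shown, from the GENCODE M21 transcripts, with the start codon in capitals.
Ndufb4 and Ndufb4c, coding bases 1 to 180: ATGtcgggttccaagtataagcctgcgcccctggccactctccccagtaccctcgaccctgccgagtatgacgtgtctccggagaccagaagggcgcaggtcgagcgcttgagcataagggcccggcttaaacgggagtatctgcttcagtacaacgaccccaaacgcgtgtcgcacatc
The deposited tables gave Ndufb4 690.38 expected counts in replicate 1 and 478.47 in replicate 2, against 1075.62 and 1057.53 for Ndufb4c, so that Ndufb4 received 39.1% and 31.2% of the sum. On its short effective length the pseudogene was listed at 344.1 and 362.0 coding TPM. Ndufb4 is distinguished from it by the 581 bases of its 971-nt transcript that lie outside the copy. If all reads of the pair belonged to Ndufb4, its level would be 111.3 coding TPM in replicate 1 and 90.9 in replicate 2. Of the other pseudogenes with an Nduf symbol, Ndufa11b, Ndufab1-ps and Ndufs6b had 0 counts in both libraries. Pseudogenes of these genes under other names were not searched for.

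Ndufab1, the mitochondrial acyl carrier protein, sits in both arms and also serves fatty acid and lipoic acid synthesis. It had 27.5 coding TPM in replicate 1 and 41.3 in replicate 2, with 778.67 and 1142.33 expected counts. These counts carried deposited posterior SDs, a score of how uncertain they are, of 12.95 in replicate 1 and 14.04 in replicate 2. The deposited bounds of Ndufab1 were 28.0 to 39.6 coding TPM in replicate 1 and 40.0 to 58.0 in replicate 2. The listed level in replicate 1 thus lies below its own bounds, and the reason was not tested. The listed levels and these bounds lie below the subunit median of each library, although the complex holds a pair of copies of the protein.

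Ndufa4 was named as a complex I subunit and is now assigned to complex IV (cytochrome c oxidase). It had 638.1 coding TPM in replicate 1 and 453.7 in replicate 2 and was the most abundant of the 46 genes by counts per kilobase. Ndufa4l2, its paralog, known as a hypoxia-inducible gene, was the least abundant at 4.80 coding TPM in replicate 1 and 14.5 in replicate 2. The ratio of the highest to the lowest mean level among subunits was 58.0, and 24.2 without Ndufa4l2. Leaving out Ndufa4 and Ndufa4l2 left the subunit to assembly factor ratio at 6.20. The subunit median could not move, because Ndufa4 lies above it and Ndufa4l2 below it in both libraries.

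The assembly factors spanned a narrow range. Ndufaf3, which works with Ndufaf4 in early assembly of the ubiquinone module, was the highest at 69.1 coding TPM in replicate 1 and 68.0 in replicate 2, while Ndufaf4 had 28.4 and 26.5. Ndufaf5, which hydroxylates an arginine of Ndufs7, had 61.1 and 51.6. Ndufaf6, needed for the early intermediate that contains the mitochondrially encoded ND1, had 31.8 coding TPM in replicate 1 and 34.0 in replicate 2. In listed level these 3 highest, Ndufaf3, Ndufaf5 and Ndufaf6, lay apart without overlap between libraries, and Ndufaf6 lay above Ndufaf4. The deposited bounds of Ndufaf6 were wide, at 31.5 to 60.3 coding TPM in replicate 2, against 48.3 to 54.8 for Ndufaf5. On protein-coding transcripts alone Ndufaf6 was below Ndufaf4, with deposited TPM of 1.82 and 2.54 against 2.19 and 2.86 in replicates 1 and 2. The place of Ndufaf6 is thus not resolved.

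Ndufaf1, a member of the membrane arm assembly complex, had 26.1 coding TPM in replicate 1 and 26.6 in replicate 2. Ndufaf8, the partner that stabilises Ndufaf5, had 31.2 and 16.1. Ndufaf2, a paralog of the subunit Ndufa12 that holds its place until the NADH module is attached, had 27.0 coding TPM in replicate 1 and 20.2 in replicate 2. Ndufaf7, a protein arginine methyltransferase, had 20.8 and 21.4. In the order of mean level from Ndufaf4 down to Ndufaf7 each gene overlapped with its neighbour, so the lower part of the order is not resolved. Ndufaf8 rests on 299 and 177 counts and Ndufaf2 on 255 and 200, the smallest counts among the assembly factors.

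The 8 Ndufaf genes were set beside 9 assembly factors without an Ndufaf name. The Ndufaf genes had medians of 29.8 and 26.5 coding TPM in replicates 1 and 2, against 33.2 and 29.1 for the others. Of the others Dmac1 was the highest by the mean of both libraries, at 61.5 and 47.0 coding TPM, and Nubpl, which supplies iron-sulfur clusters, the lowest at 4.80 and 5.63. Nubpl was thus lower than all 8 Ndufaf genes in both libraries.

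The 7 complex I genes of the mitochondrial genome had a median of 912.2 coding TPM in replicate 1 and 1352 in replicate 2. Among them mt-Nd1 had 2765 and 2881 coding TPM and mt-Nd6 had 445.5 and 441.0. Of these 7 genes 6 were higher in replicate 2, whereas 34 of the 38 nuclear subunits were higher in replicate 1. Among all coding genes 33.3% were higher in replicate 1, so most went the way of the mitochondrial genes.

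Among the other respiratory complexes, the nuclear subunits of complex I, with medians of 198.9 and 151.8, lay near those of complexes II and III and below those of complexes IV and V. The sets differ in transcript length, with replicate 1 medians of 1317 nt in complex II, 919.5 in III, 630.7 in IV and 822.5 in V. The complex I subunits had 755 nt over both libraries, and the part of length in these contrasts was not tested. Complex II had medians of 174.6 coding TPM in replicate 1 and 173.2 in replicate 2, with Sdhb highest by the mean of both libraries at 298.2 and 244.5 and Sdha lowest by that mean at 160.5 and 86.5. Complex III had 216.4 and 188.8, with Uqcrc1 highest by the mean of both libraries at 353.7 and 314.2 and Uqcrq lowest at 29.5 and 19.7. Within each library the medians of complexes I, II and III differed by less than complex I did between libraries (198.9 and 151.8).

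Complex IV had medians of 585.7 coding TPM in replicate 1 and 398.4 in replicate 2, and by the mean of both libraries its genes ran from Cox7c at 980.0 and 668.8 to Cox7b at 269.4 and 185.4. Complex V, the ATP synthase, had 358.7 and 289.6, and by the same mean its genes ran from Atp5b at 2368 and 2785 to Atp5j at 168.4 and 153.9. The complex I medians were lower than both in each library. The lists of complexes II to V follow textbook membership, and that of complex IV holds ubiquitous isoforms only. The complex I subunits were instead taken by name and include Ndufa4 and Ndufa4l2.

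**Figure D3:**
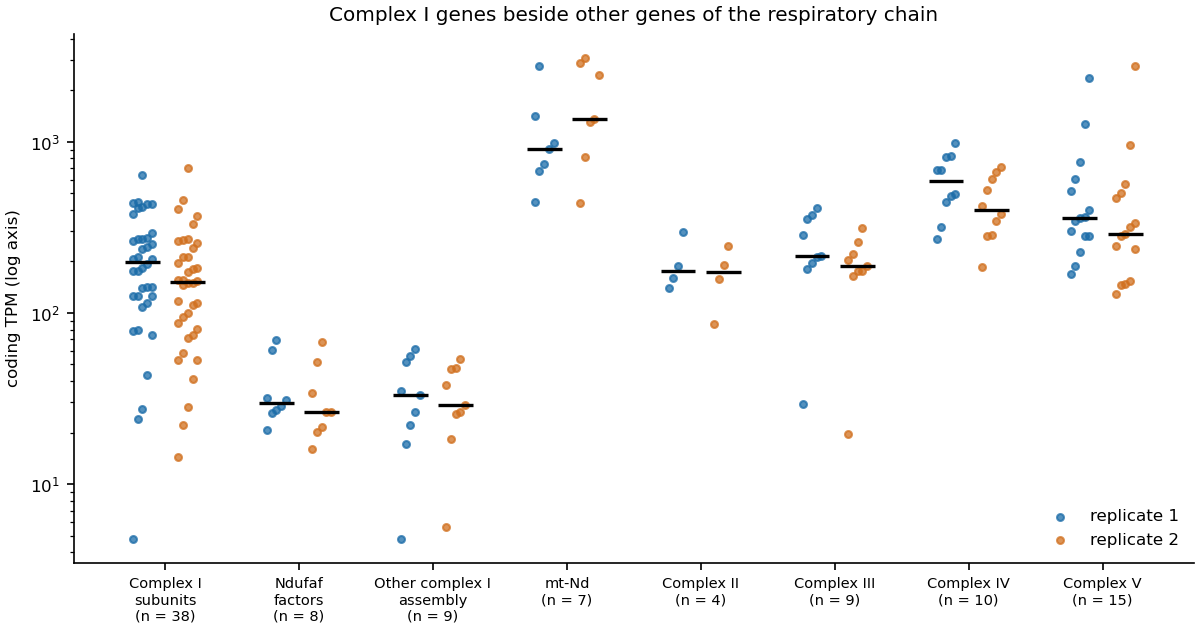
Coding TPM (log axis) of complex I subunits, Ndufaf assembly factors, 9 other complex I assembly factors, the 7 mitochondrially encoded complex I genes and complexes II to V, with 1 point per gene, replicate 1 in blue, replicate 2 in orange and a bar at each median. Both kinds of assembly factor lie near 30, the nuclear subunits of complex I near those of complexes II and III, and the mitochondrial genes have the highest medians.

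Between the libraries the order of the 46 genes was much the same (Spearman rho = 0.971, a description over genes), but their values were mostly higher in replicate 1. Counting a change as at least 2-fold among protein-coding genes that averaged 10 or more counts, 2 of the 46 genes, Ndufc1 and Ndufa4l2, passed, against 8.49% of the 15186 protein-coding genes. By direction, 1 gene was higher in replicate 1, where the share of all coding genes was 2.55%, and 1 was higher in replicate 2, where it was 5.94%. Higher in replicate 1 by any amount were 39 of the 46, against 33.3% of the coding genes.

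The median log2 ratio of replicate 1 over replicate 2 was 0.38 over the 46 genes and -0.15 over all coding genes, and 43 of the 46 lay above the latter value. By class it was 0.41 over the 38 subunits, with 34 higher in replicate 1, and 0.06 over the 8 assembly factors, with 5 higher in replicate 1. Scaled instead by TMM, which sets the median of all genes near 0, the 46 genes had a median of 0.56. Without rescaling to coding genes, the deposited TPM gave -0.32 for the 46 and -0.80 for all coding genes, and again 43 of the 46 lay above the latter value, so the sign depends on the scale.

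Short coding genes as a class also had higher values in replicate 1. Of the 1095 coding genes with a mean length up to 1000 nt, 65.1% were higher in replicate 1, with a median log2 ratio of 0.21, against 30.8% and -0.16 among the 14091 longer ones. Of the 30 complex I genes up to 1000 nt, 26 were higher in replicate 1, with a median of 0.42. Of the 16 longer ones, 13 were higher, with a median of 0.15, and among these the 11 subunits had a median of 0.27. The genes of complexes III and IV were likewise all higher in replicate 1 (9 of 9 and 10 of 10), as were 13 of the 15 of complex V. Blood genes (hemoglobin) were higher in replicate 1 in 4 of 4, with a summed level of 2499 coding TPM against 1804 in replicate 2, and the part of length, fragment size or blood in the difference was not tested.

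**Figure D4:**
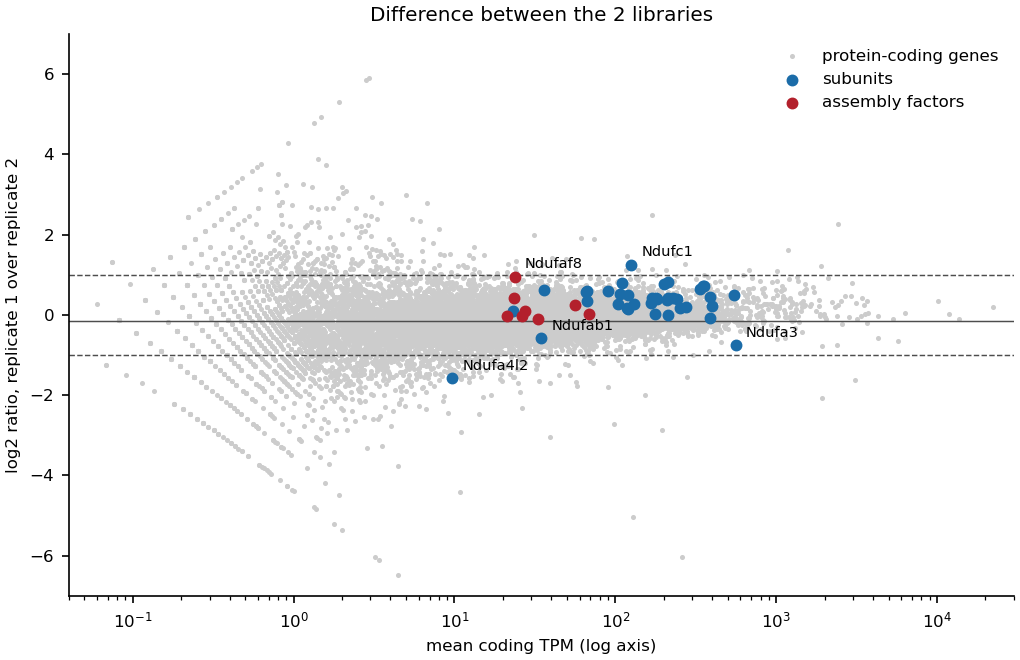
Log2 ratio of coding TPM, replicate 1 over replicate 2, against mean coding TPM (log axis, genes at 0 cannot be drawn) for 15186 protein-coding genes in grey, subunits in blue and assembly factors in red. The solid line is the median of the coding genes at -0.15, the dashed lines mark 2-fold, and 43 of the 46 complex I genes lie above the solid line.

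Ndufc1, a single-pass subunit of the membrane arm on chromosome 3 (51404677 to 51408988, minus strand), had 176.4 coding TPM in replicate 1 and 74.0 in replicate 2. The log2 ratio was 1.25 with a 95% interval of 1.13 to 1.38 from counting error alone. Its counts differed less, at 1230 and 940, and scaled by TMM the ratio was 0.67, under 2-fold. The division of reads among its transcripts also differed. Ndufc1-204, of 315 nt with an effective length of 67.7 and 47.4 nt, took 191.95 counts in replicate 1 and 40.8 in replicate 2, which made 73.2% and 48.4% of the gene's TPM. The longer Ndufc1-201, of 1249 nt, took 1038.05 and 899.2 counts and made 26.8% and 51.6%.

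Ndufa4l2, on chromosome 10 (127514967 to 127517154, plus strand), had 75 counts in replicate 1 and 241 in replicate 2. Its log2 ratio was -1.57 with an interval of -1.99 to -1.21, and it was past 2-fold under TMM as well, at -1.40. The gene is known in brain mainly from pericytes, the mural cells of capillaries. Of 5 pericyte markers, a list chosen after the values were seen, 4 were higher in replicate 2. The exception was Anpep, at 3.32 coding TPM in replicate 1 and 3.18 in replicate 2. The summed level of the 5 was 86.5 coding TPM in replicate 1 and 118.8 in replicate 2. Most coding genes went the same way, with 33.3% higher in replicate 1 and 30.8% among those longer than 1000 nt. Meningeal collagen and proteoglycan genes were higher in replicate 2 in 4 of 4, with summed levels of 132.2 and 484.1. The part of these cells in the Ndufa4l2 difference was not tested, and in bulk tissue fewer cells of a type and less RNA per cell cannot be told apart.

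With TMM-scaled counts the genes past 2-fold were Ndufa2, Ndufs5, Ndufaf8 and Ndufa4l2, at log2 ratios of 1.03, 1.06, 1.03 and -1.40. These are 4 of the 46 genes, against 6.26% of coding genes past 2-fold on that scale. Ndufa4l2 is the only gene of the 46 past 2-fold on both scales. On the coding TPM scale Ndufaf8 reached 0.95, just short of 2-fold.

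Most complex I genes were read as 1 main transcript. The tables list 182 transcripts for the 46 genes, with 16 genes having 1 transcript and 30 having several, up to 13. In 27 of those 30 the same transcript was dominant in both libraries, and in 44 of the 46 it was annotated as protein-coding in both. Protein-coding transcripts made up a median of 99.995% of subunit TPM in replicate 1 and 100% in replicate 2, and 92.0% and 88.3% of assembly factor TPM in replicates 1 and 2. Each of the 16 genes with 1 transcript holds 100% by annotation, and most of these are subunits. The medians therefore depend on how many transcripts are listed. Among subunits with several, the coding share was as low as 47.15%, for Ndufb10 in replicate 1.

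The dominant transcript differed between libraries for Ndufc1, as above, and for Ndufb10 and Ndufaf4. For Ndufb10, of the membrane arm, the retained intron transcript Ndufb10-202 held 50.4% of TPM in replicate 1 and 21.1% in replicate 2, while the coding Ndufb10-201 held 47.2% and 78.7%. For Ndufaf4 the coding Ndufaf4-201 held 54.1% and 49.1%, and the non-coding Ndufaf4-202 held 43.2% and 50.9%, so that the order turned on a small shift. Ndufaf6 had only 42.4% of its TPM in replicate 1 and 33.9% in replicate 2 on Ndufaf6-201, its only coding transcript with reads, and the rest was spread over non-coding processed transcripts.

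A few further genes were picked after their values were seen. Ndufs1 was split between coding transcripts, with Ndufs1-201 at 40.9% in replicate 1 and 57.6% in replicate 2, Ndufs1-203 at 26.5% and 29.1%, and the short Ndufs1-211 at 19.5% and 1.54%. The retained intron transcript Ndufa12-202 held 22.1% of Ndufa12 in replicate 1 and 0.24% in replicate 2. Ndufv3 is known to give a short and a long protein, and here the 485-nt Ndufv3-202 held 96.64% and 94.98% of TPM, against 2.90% and 4.38% for the 1537-nt Ndufv3-201. In counts the longer form was less rare, with 367.3 of the 2637 counts in replicate 1 and 442.8 of 2100 in replicate 2.

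**Figure D5:**
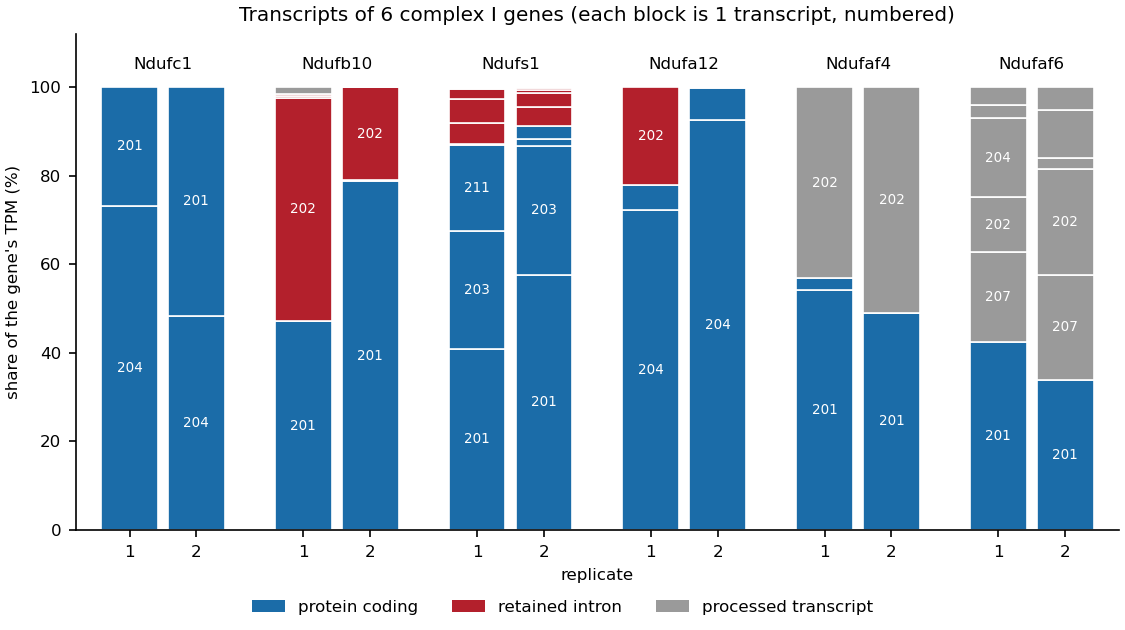
Share of the gene's TPM (%) held by each listed transcript of 6 complex I genes in replicates 1 and 2, with blocks numbered by transcript and coloured by annotation. The retained intron block of Ndufb10 holds 50.4% in replicate 1 and 21.1% in replicate 2, while Ndufaf6 is mostly non-coding in both.

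The genes lie on 17 chromosomes, with 6 on chromosome 17. Many of them start close to a neighbour. A protein-coding gene on the other strand starts within 1000 nt of the start of 21 of the 46 (45.7%), against 15.2% of detected coding genes and 10.9% of all coding genes. The closest pairs were Ndufs1 with Eef1b2, a translation elongation factor subunit, at 8 nt, Ndufa7 with Rps28, a ribosomal protein gene, at 10 nt, and Ndufb9 with Tatdn1 at 18 nt. Ndufs6 starts 29 nt from Mrpl36, a mitochondrial ribosomal protein gene. Overlap with a gene on the same strand, where stranded reads do not separate the pair, occurred for 4 genes (Ndufa10, Ndufa13, Ndufb8 and Ndufc2), and only Yjefn3 beside Ndufa13 had counts of its own, 94 in replicate 1 and 159 in replicate 2.

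The promoters were searched on both strands for short motifs of factors long linked to respiratory chain genes. RefSeq windows of 300 bases (GRCm38.p6, 250 before and 50 after the start) were found for 40 of the 46 genes. The YY1 motif AAGATGGC occurred in 8 of the 40 (20%), against 4.98% of the promoters of 10598 detected coding genes and 3.19% of all 27025 genes. The NRF1 core GCGCATGC occurred in 5 (12.5%), against 5.91% and 3.05%, and the ETS motif CCGGAAGT in 1 (2.5%), against 8.56% and 4.31%. At least 1 motif was found in 14 promoters (35%), against 18.0% and 9.91%. The windows had a median GC content of 59.3% among the complex I genes and 61.0% among detected coding genes.

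All 8 YY1 matches lay after the start and on the sense strand, and in 7 of them the ATG inside the motif is an annotated start codon in GENCODE M21. The exception is Ndufaf8. The promoters of the highest core subunit, the highest accessory subunit and the highest assembly factor that hold a motif are shown, with motif matches in capitals. The match begins 25 bases into the transcript in Ndufs7 and 23 in Ndufa3, and in Ndufaf5 a forward and a reverse NRF1 core overlap. A match is a description of the letters and not evidence of binding.
Ndufs7, chr10:80249199-80249498, plus strand: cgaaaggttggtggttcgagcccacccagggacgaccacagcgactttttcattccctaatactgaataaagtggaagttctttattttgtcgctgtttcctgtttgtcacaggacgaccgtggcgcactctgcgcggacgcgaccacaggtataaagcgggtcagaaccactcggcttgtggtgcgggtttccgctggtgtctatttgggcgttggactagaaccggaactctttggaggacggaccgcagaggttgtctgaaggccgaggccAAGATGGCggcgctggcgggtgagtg
Ndufa3, chr7:3617123-3617422, plus strand: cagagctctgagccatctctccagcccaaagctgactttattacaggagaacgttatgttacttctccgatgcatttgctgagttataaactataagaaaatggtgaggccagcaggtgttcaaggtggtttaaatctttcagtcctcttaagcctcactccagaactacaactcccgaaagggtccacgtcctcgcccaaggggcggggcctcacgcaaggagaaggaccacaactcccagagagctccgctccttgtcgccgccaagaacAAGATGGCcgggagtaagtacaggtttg
Ndufaf5, chr2:140170396-140170695, plus strand: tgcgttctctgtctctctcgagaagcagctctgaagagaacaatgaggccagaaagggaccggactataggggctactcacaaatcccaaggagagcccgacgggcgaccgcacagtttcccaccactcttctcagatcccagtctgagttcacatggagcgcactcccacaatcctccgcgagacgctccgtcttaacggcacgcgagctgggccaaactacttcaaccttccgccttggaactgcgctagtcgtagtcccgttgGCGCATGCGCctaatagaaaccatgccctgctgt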

How the data were processed

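Gene and transcript tables of 2 forebrain libraries, deposited on mm10 with GENCODE M4 per the text supplied with the samples, were used. Their aligner and quantifier: not given in the sources used here. The deposited expected counts need not be whole and were rounded for TMM and DESeq2. The deposited TPM and FPKM are scaled by effective length. The deposited isoform percent is each transcript's share of its gene's TPM. Deposited posterior SDs were taken as a score of how uncertain the counts are, and deposited TPM bounds as a signal range.

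Of 43346 genes, 42462 matched GENCODE M21 by identifier, which gave symbols, and unmatched genes held 0.152% and 0.140% of counts. TPM was rescaled by 7.38 (replicate 1) and 4.54 (replicate 2) to the protein-coding sum. Log2 ratios used a pseudocount of 0.1 coding TPM and genes averaging 10 or more counts, and called means at least 2-fold. Intervals are exact binomial at 95%, from expected counts, and cover counting error only. Each side of a ratio is 1 library, so there is no p-value, and steps were tested on simulated data. Members and lists were chosen with earlier results of these data known. Named genes were the core subunits, all assembly factors, the 3 highest and 2 lowest of each arm, Ndufab1, Ndufa4, Ndufa4l2, near copies, genes past 2-fold, genes with unusual main transcripts, and each list's extremes; not every gene under this rule is reported here. Coa1 had no match. Python 3.11.15, R 4.3.3, edgeR 4.0.16 and DESeq2 1.42.0 were used; alternatives are given in the closing section.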

Additional observations from a re-analysis of the deposited data

How the results depend on the processing

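Of 63 alternative values, 50 kept their direction and stayed within a set spread, 12 moved and 1 changed sign. For class ratios that spread was the SD of the 2 libraries, and for numbers of genes a factor of 1.5. For the median log2 ratio it was the SD over the 46 genes, 0.457. The core ratio with means was among the 12 but also crossed 1. So did the ratio of the arms in counts per kilobase and at 500 nt or more. Some of the 50 could not have moved, among them the ratios with 1 replicate left out and at 1 coding TPM or more. The subunit to assembly factor ratio, 6.20, was 5.29 in counts per kilobase and 3.84 at 500 nt effective length or more. The core to other subunit ratio, 1.05, was 1.19 in counts per kilobase, 1.17 with protein-coding transcripts only, 2.65 at 500 nt or more and 0.840 with means. The ratio of the arms, 0.902, was 1.09 in counts per kilobase and 1.36 at 500 nt or more. Genes past 2-fold, 2, numbered 4 by TMM, 4 by DESeq2 size factors and 1 by library totals. The shares of coding genes past 2-fold were 6.26%, 7.74% and 6.91% in that order. At 1.5-fold 13 passed, against 20.96% of coding genes. The median log2 ratio, 0.38, was -0.32 in unrescaled TPM. The cause of these moves was not tested.

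Leaving out 1 replicate gave 5.73 to 6.67 for subunits over assembly factors, 1.03 to 1.07 for core over other subunits and 0.823 to 0.981 for the arms. It gave 46 detected genes and 45 with a coding main transcript either way, and it left no value for results that need both libraries. These ratios could not count as moved, because with 2 libraries each single value lies within the SD of their mean. The number of detected genes was also fixed, because all 46 were detected in both libraries. No paired analysis was possible because the libraries form 1 group. Adding the reads of Ndufb4c to Ndufb4, tried after seeing the data, left the ratio at 6.20. It could not do otherwise, because Ndufb4 would then have 111.3 and 90.9 coding TPM in replicates 1 and 2. Both values lie below the subunit medians of 198.9 and 151.8. Short effective lengths limit the levels of 8 subunits under 300 nt, and the spread rests on 2 libraries.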

Other observations

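The genes that start head to head with complex I genes spanned a wide range of levels. Eef1b2, 8 nt from Ndufs1, had 748.6 coding TPM in replicate 1 and 782.3 in replicate 2, and Rps28, 10 nt from Ndufa7, had 1023 and 567.4. Ndufb9 had 438.8 and 268.8 coding TPM, against 6.42 and 5.63 for Tatdn1, which starts 18 nt away. Asb15, 131 nt from Ndufa5, had 0 in both libraries, and Tssk6, 374 nt from Ndufa13, had 0 in replicate 1 and 0.908 in replicate 2.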
